A study of Aedes aegypti with 3 samples.

Results

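The isolated open regions of the *Aedes aegypti* embryo were 1165 FAIRE peaks of the AaegL3 list that lay far from every other peak. The regions were chosen by width and spacing. A peak was taken as isolated when it was under 2500 bp wide, had a peak on both sides on the same scaffold and was separated from each by at least 25000 bp without a peak. Mitochondrial peaks were left out. These regions were 0.932% of the 124959 peaks of the list, and 0.996% of the 116967 peaks that were narrow enough and had a neighbour on both sides. They covered 1.15 Mbp in all.

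In FAIRE-seq, chromatin is crosslinked and sheared, and the fragments that carry little protein are extracted and sequenced, so reads gather where nucleosomes are sparse. Such open chromatin marks promoters, enhancers and other cis-regulatory elements. Enhancers of a gene often lie close together and beside its promoter, so that open regions come in clusters, while some elements act from far away or stand alone within long introns. The *A. aegypti* genome is large, with long introns and long stretches between genes, and its AaegL3 assembly is divided into scaffolds called supercontigs.

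The samples were 3 biological replicates of whole wild type embryos of strain Liverpool-IB12 (LVP-IB12), 49 to 51 h after egg laying, with both sexes and all cell types mixed. The labels give about 150 M reads of 50 bp for each replicate. The published methods give more and longer reads, so depth is described here only by the reads over each summit. The replicates were pooled before peaks were called, so each region has a single value with no spread between replicates, and no difference described here was tested against replicate error. The rule itself used width and spacing from these calls, and strength comes from the same reads, so all values are descriptions and the exact 95% binomial intervals given with shares reflect counting error and nothing else.

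Peaks of 3 kinds were set beside the isolated regions, all under 2500 bp with a neighbour on both sides. There were 11883 peaks with a long gap of at least 25000 bp on a single side, 1380 closely set peaks with less than 1000 bp to the neighbour on each side, and 115802 peaks in all that were not isolated. The remaining 7990 peaks off the mitochondrial scaffold could not pass the rule, 4232 of them as the first or last peak of a scaffold and 3978 (some of them both) for their width.

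The isolated regions were reported as slightly stronger than other peaks, yet fewer reads lay over their summits. The median −log10 p, which MACS2 computes from the reads at the summit against a background, was 8.32 in isolated regions (quartiles 5.94 and 12.1), against 7.28 in peaks that were not isolated. Peaks with 1 long gap had a median of 7.69 and closely set peaks 6.21. Thus the reported strength followed the spacing in order.

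The read pileup, the number of extended reads that cover the summit, followed another order. It was solved from the fold enrichment and the −log10 p of each peak, which share the pileup and the background and fix both, for 124949 of the 124959 peaks and for every isolated region. The median pileup was 80 reads in isolated regions (quartiles 72 and 92, highest 295), against 89 reads in peaks that were not isolated (quartiles 78 and 103, highest 543 among those solved). The strongest of the latter, with a −log10 p of 372.3, was not solved. Over all widths together, the median pileup was 82 reads with 1 long gap and 87 in closely set peaks, so the isolated regions had the lowest median of these groups. At similar width the difference from peaks with 1 long gap was small or absent, as given with the widths below.

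The background moved with spacing more than the pileup did. MACS2 sets each peak against the larger of the genome-wide mean and the mean around the peak. The genome-wide value was 39.5 reads, and it applied to 1053 isolated regions, or 90.4% (88.5 to 92.0%), against 32.9% (32.6 to 33.1%) of peaks that were not isolated. The share was 63.7% with 1 long gap and 15.4% in closely set peaks. The rule keeps other peaks away from an isolated region, so their reads can add little to the mean around it. The high share at the genome-wide value is therefore at least in part set by the rule, which the interval does not reflect. The fold enrichment had a median of 1.98 in isolated regions, against 1.84 in peaks that were not isolated. When −log10 p was recomputed with the genome-wide background for every peak, an alternative chosen after the data were seen, the median stayed 8.32 in isolated regions, against 11.4 in peaks that were not isolated. With the same background for every peak, −log10 p follows the pileup alone. The recomputed order therefore restates the order of the reads and is not a separate result.

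**Figure D1:**
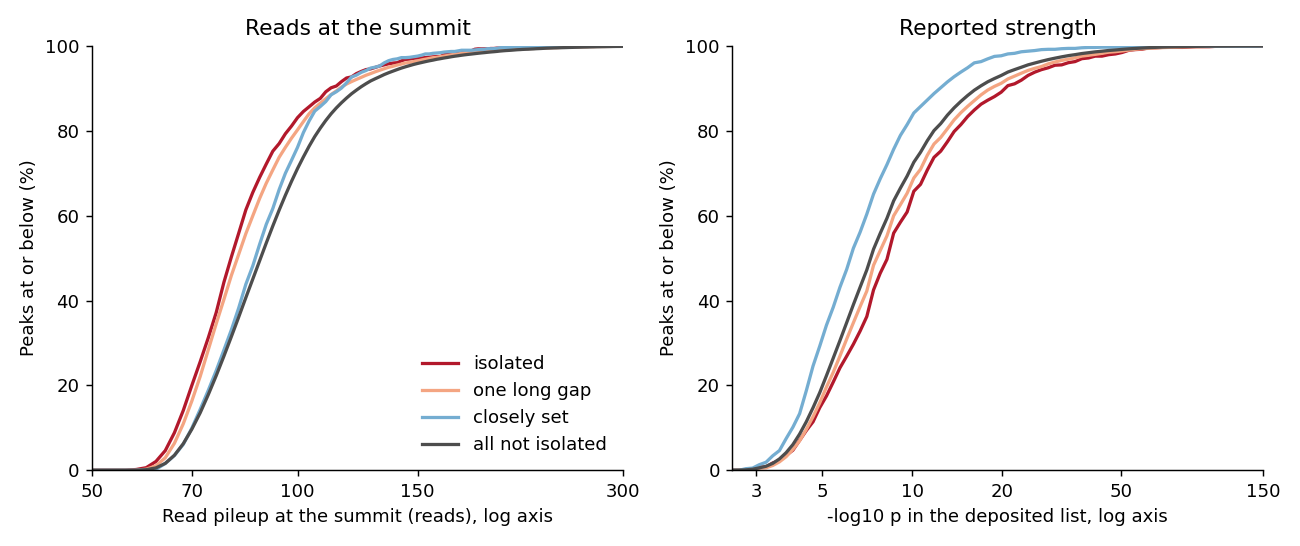
Share of AaegL3 peaks (percent, vertical axis) at or below a given read pileup at the summit (left, reads, log axis) and a given −log10 p (right, log axis), for isolated regions, peaks with 1 long gap, closely set peaks and all peaks that were not isolated. At the median the isolated regions have the fewest reads of these groups, 80 against 89, and the highest −log10 p, 8.32 against 7.28, while the curves cross at both ends.

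High values of −log10 p were somewhat more common among the isolated regions than elsewhere. A −log10 p of at least 5 was reached by 992 isolated regions, or 85.2% (83.0 to 87.1%), against 80.6% of peaks that were not isolated and 81.4% of the whole list. A value of at least 10 was reached by 34.2%, against 27.8% (29.6% of the list). At least 20 was reached by 127 isolated regions, or 10.9% (9.17 to 12.8%), against 6.90% (7.62% of the list). With the genome-wide background for all peaks, at least 20 was reached by 11.5% of isolated regions, against 18.4% of peaks that were not isolated. The surplus of strong regions therefore held for the −log10 p as deposited and turned round with a common background. This reversal again restates the pileups.

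The isolated regions were somewhat narrow, and the difference in strength was seen at every width. Their median width was 879 bp (quartiles 659 and 1184 bp), against 945 bp in peaks that were not isolated. The smallest were 550 bp, the length to which reads were extended, and the widest was 2489 bp. Among isolated regions, wider ones were stronger, with a Spearman correlation of 0.50 between width and −log10 p over 1165 regions, against 0.56 over the other 115802. Both quantities come from the same pileup, so this correlation is a description.

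Within each of 5 bins of width, the isolated regions had the higher median −log10 p. In the narrowest bin, with 368 isolated regions, the median was 6.21, against 5.31 in 28602 peaks that were not isolated. In the middle bin, with 280 isolated regions, it was 9.98, against 8.05. In the widest bin, with 126 isolated regions, it was 13.1, against 11.4. With the genome-wide background these medians became 6.21 against 8.00, 10.3 against 12.1 and 13.7 against 16.1. In each bin the isolated regions then had a lower median than peaks that were not isolated, which follows from their lower median pileup. Peaks with 1 long gap nearly shared this low pileup. From the narrowest bin to the widest, the median pileup was 73, 79.5, 86, 88 and 95 reads in isolated regions. With 1 long gap it was 73, 79, 86, 89 and 97 reads. At similar width, a low pileup was thus not particular to isolated regions.

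**Figure D2:**
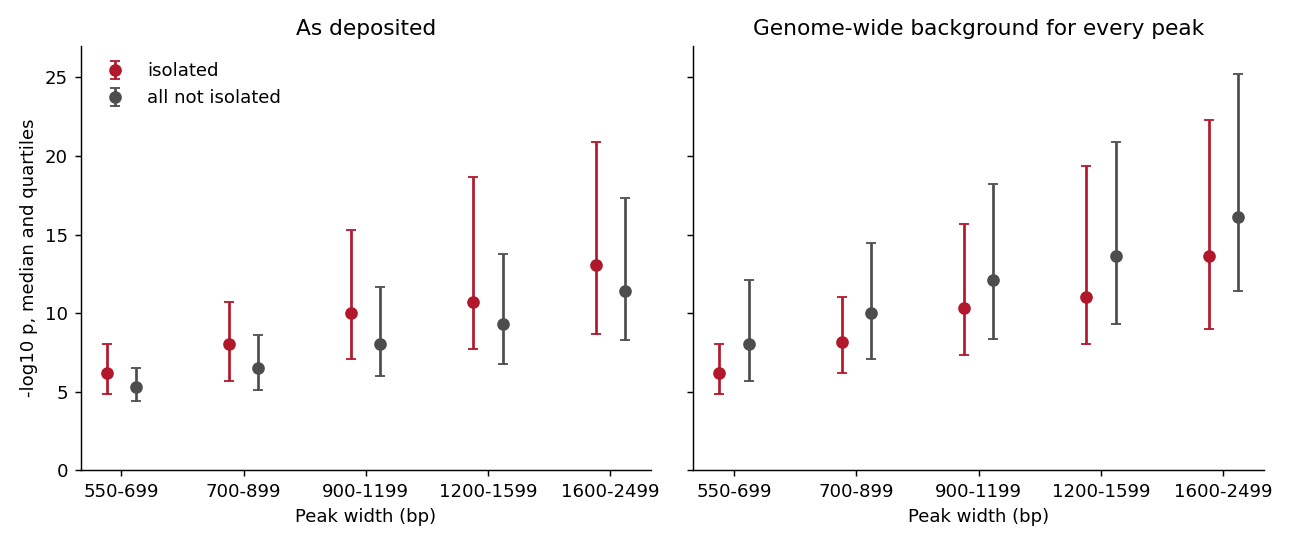
Median −log10 p with quartiles (vertical axis) by peak width in bp (horizontal axis), isolated regions in red and all peaks that were not isolated in grey, as deposited (left) and with the genome-wide background for every peak (right). The red medians lie above the grey ones in all 5 bins on the left and below them in all 5 on the right.

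The summit lay near the middle of the region. It stood at a median of 48.9% of the width in isolated regions (quartiles 37.3 and 62.2%), against 49.6% in peaks that were not isolated. In the 119 strongest isolated regions, with a median width of 1292 bp, the quartiles were 41.7 and 55.2%, and in the 133 weakest, with a median width of 646 bp, they were 28.5 and 71.0%. Strong isolated regions were thus centred on their summit more closely than weak ones.

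The strongest isolated region was supercont1.836:109185-110162 (AaegL3, counted from 1), with a pileup of 295 reads and a −log10 p of 149. It ranked 27 in the whole list. The gap to its left was 35322 bp and the gap to its right 157719 bp. Its neighbours were strong as well, with a −log10 p of 22.3 on the left and 295.0 on the right, and it ranked 3 among the 15 peaks of its scaffold.

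The next strongest stood out from their surroundings. The region supercont1.307:184189-185601 had 237 reads and a −log10 p of 100.5, while its neighbours had 6.21 and 15.7. It was the strongest of 149 peaks on its scaffold. The region supercont1.1220:95914-98109 had 216 reads and a −log10 p of 85.0, against 18.7 and 8.00 in its neighbours. The region supercont1.435:197448-199381 had 210 reads and a −log10 p of 80.6, against 9.98 and 16.1. Both of these were the strongest peak of their scaffold.

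The region supercont1.20:496306-498033 showed how the background enters. It had 232 reads, more than supercont1.1220:95914-98109, but a background of 57.3 reads and therefore a −log10 p of 67.2. The remaining 5 of the 10 strongest had a −log10 p of 58.3 to 61.9, with 178 to 195 reads, and lay on supercont1.140, supercont1.96, supercont1.684, supercont1.953 and supercont1.226. Those on supercont1.684 and supercont1.953 had equal values, 181 reads and a −log10 p of 60.3. Among the 10, all but supercont1.836 were stronger than both neighbours.

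Among all isolated regions such contrast was not usual. Of 1165, 370 (31.8%) were stronger than both neighbours and 352 (30.2%) were weaker than both, against 31.6 and 33.4% of the peaks that were not isolated. The 1849 peaks that flanked an isolated region without being isolated themselves, 70 of them at least 2500 bp wide, had a median −log10 p of 7.78 and a median pileup of 81 reads. Isolated regions and these distant neighbours therefore had similar pileups.

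At the weak end, supercont1.265:1287608-1288195 and supercont1.358:186816-187502 had 58 reads each and a −log10 p of 2.66, the lowest among isolated regions. In the second the summit lay at 2.91% of the width, the nearest to an edge. The region supercont1.289:1010713-1011262, with 60 reads, a −log10 p of 3.05 and the smallest width of 550 bp, had the longest gap beside any isolated region, 271622 bp to its right.

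Long gaps were few but made up much of the space between peaks. Over all 122568 gaps of the list the median was 6092 bp, and 7634 gaps (6.23%) were at least 25000 bp. They held 343.0 of 1130 Mbp between peaks, or 30.3%. A long gap on the left was followed by a long gap on the right in 1165 of 7116 cases, or 16.4%, against 5.40% after a shorter gap on the left. Long gaps thus tended to follow each other, and an isolated region is what lies between them. What these gaps contain was not analysed here, as no AaegL3 sequence or gene annotation was used.

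Most isolated regions were not far beyond the limit. The smaller of the gaps had a median of 32847 bp (quartiles 28153 and 40835 bp) and the larger a median of 53114 bp. The smaller gap was at least 50000 bp for 144 regions, or 12.4%, and at least 100 kb for 13. The larger gap was on the left in 557 regions and on the right in 608.

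The limit cut through a continuous range of values. Just inside it were supercont1.65:2842648-2843245, with a smaller gap of 25005 bp, 68 reads and a −log10 p of 4.88, and supercont1.691:306705-307556, with 25018 bp, 73 reads and 6.21. A further 3 with a smaller gap of at most 25027 bp had a −log10 p of 6.79 to 29.3. Just outside were supercont1.1135:158481-159039, with 24999 bp, 64 reads and a −log10 p of 3.91, and supercont1.96:1131074-1132012, with 24993 bp, 70 reads and 5.39. The next 3 outside, down to 24959 bp, had a −log10 p of 7.39 to 12.9. At the width limit, the 5 widest members were 2437 to 2489 bp with a −log10 p of 7.91 to 35.7, and the 5 narrowest peaks kept out were 2538 to 2626 bp with 9.76 to 23.3. The regions on either side of both limits overlapped in strength.

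Across the whole range of spacing, the pileup was highest where the smaller gap was a few kb, lower towards 25 kb and level among isolated regions up to 100 kb. The median was 88 reads where the smaller gap was under 1 kb (30116 peaks), 91 reads at 2.5 to 5 kb (26056 peaks), 85 reads at 10 to 15 kb (6877 peaks) and 82 reads at 15 to 25 kb (3013 peaks). Among isolated regions it was 80 reads at 25 to 30 kb (412 regions), 81 at 30 to 40 kb (450), 80 at 40 to 60 kb (222) and 82.5 at 60 to 100 kb (68). The share at the genome-wide background was 25.1% under 1 kb, 76.3% at 15 to 25 kb and 94.6% at 40 to 60 kb. Over the same bins the median −log10 p was 6.79, 8.00 and 8.00. Thus spacing and strength were hardly related within the isolated regions, where the Spearman correlation of smaller gap and −log10 p was 0.04 over 1165 regions.

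**Figure D3:**
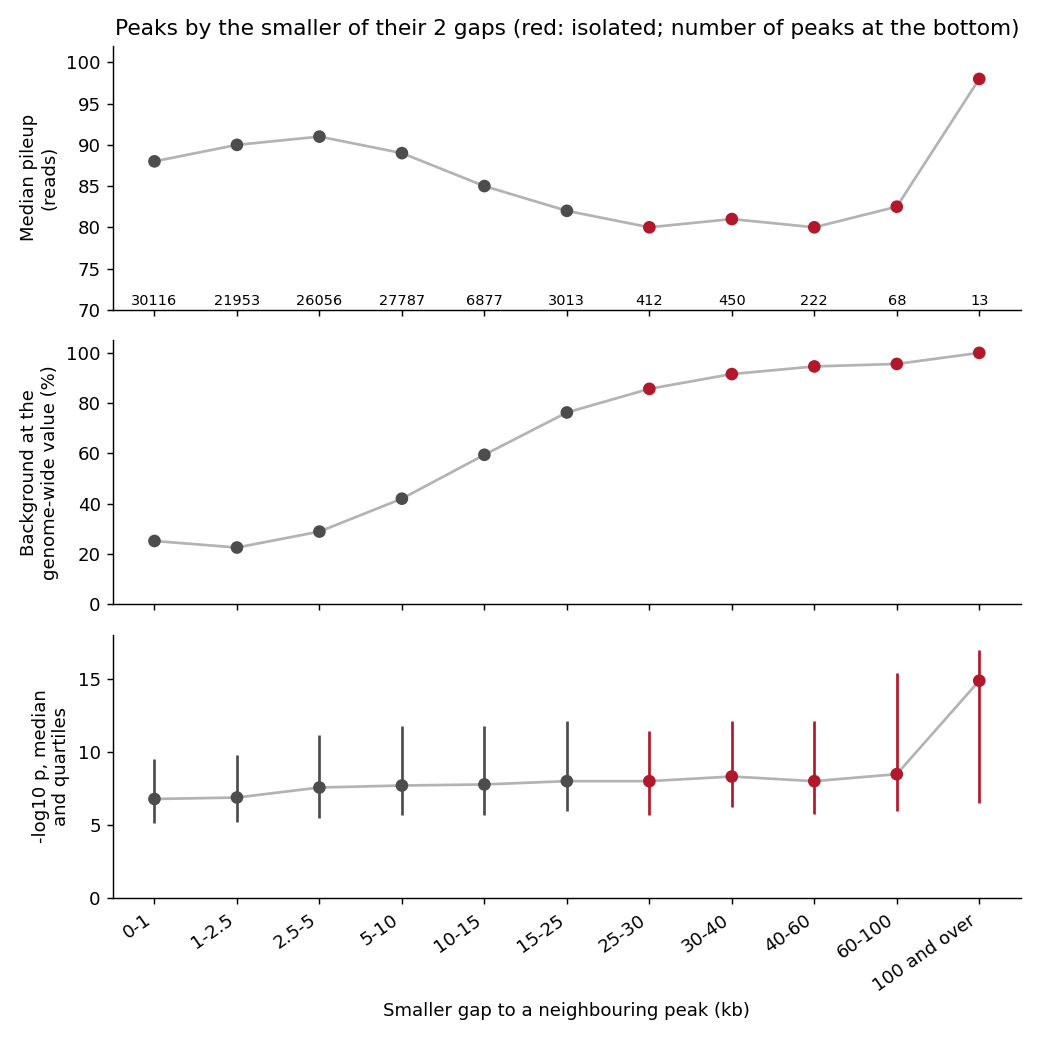
Median pileup in reads (top), share of peaks at the genome-wide background in percent (middle) and median −log10 p with quartiles (bottom) by the smaller gap of a peak in kb, with isolated regions in red, other peaks in grey and the number of peaks under each point. The pileup is 91 reads at 2.5 to 5 kb and 80 to 82.5 reads from 25 to 100 kb, and the last point, 98 reads, rests on 13 regions.

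The 13 regions more than 100 kb from any other peak had a median pileup of 98 reads and a median −log10 p of 14.9, but they varied widely. The farthest of all was supercont1.381:450920-451892, with gaps of 141888 bp and 151324 bp, 118 reads and a −log10 p of 23.7. The region supercont1.708:221392-222085 had a smaller gap of 130910 bp, 101 reads and a −log10 p of 16.1, and it lay between the first and the last peak of its scaffold, which held no others. The region supercont1.189:414889-415857 had a smaller gap of 123347 bp, 165 reads and a −log10 p of 50.0. The region supercont1.300:1103890-1105333 had 110657 bp, 170 reads and 53.1. These were strong peaks in long stretches without any other.

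Others at such distances were weak. The region supercont1.747:260906-261642, with gaps of 121576 bp and 193868 bp, had 61 reads and a −log10 p of 3.26, and supercont1.447:834306-835217, with a smaller gap of 108858 bp, had 67 reads and 4.63. Between these lay supercont1.444:251112-252023, with 81 reads and 8.64. On supercont1.195 the regions 1356651-1357617 and 1481260-1482223 were each other's neighbour across 123642 bp. They had 74 and 92 reads and a −log10 p of 6.50 and 12.5. All 10 of the farthest regions stood at the genome-wide background, so their order by −log10 p was the order of their reads.

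**Figure D4:**
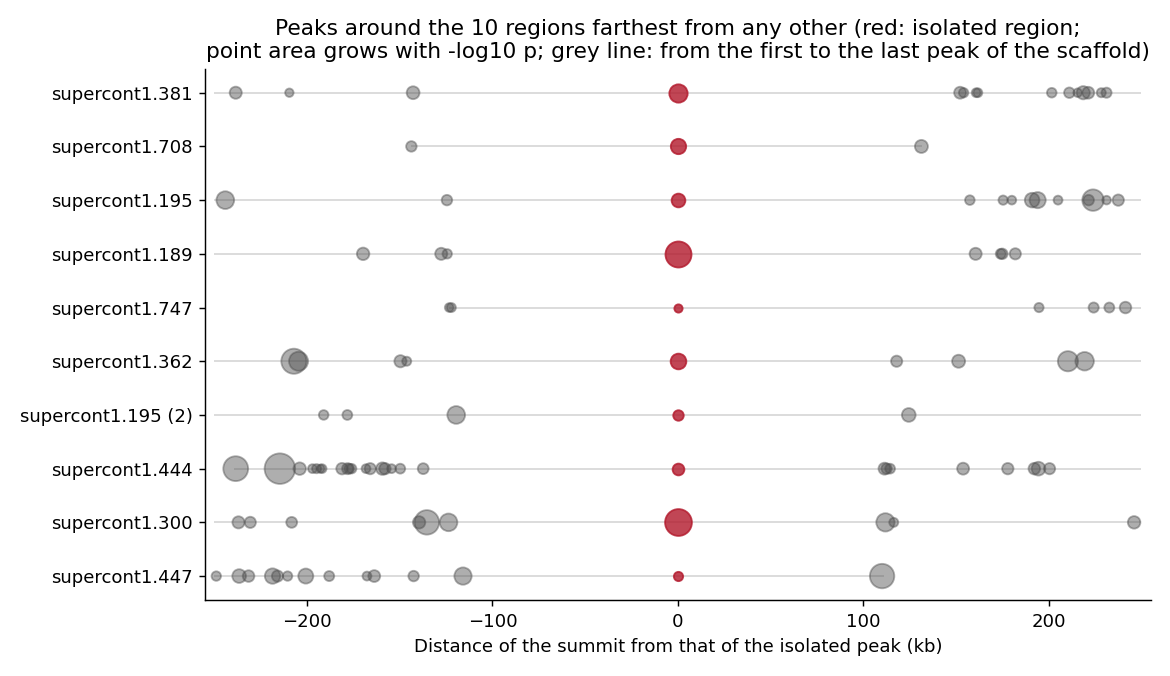
Peaks within 250 kb of the 10 isolated regions farthest from any other, by distance of the summits in kb (horizontal axis) and 1 row for each region, named by scaffold. Red points are the isolated regions and grey points other peaks, point area grows with −log10 p, and grey lines run from the first to the last peak of a scaffold. The nearest peak to any of the 10 regions is 108858 bp away, and the number of other peaks in view is 2 for supercont1.708, whose peaks end within the plot, and 26 for supercont1.444.

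Isolated regions were often neighbours of each other. While 740 stood alone, 425 (36.5%) had another isolated region as the next peak. They formed 139 runs of 2, 39 runs of 3, 5 runs of 4 and 2 runs of 5. Regions in runs had a median −log10 p of 8.32 and a median pileup of 80 reads, against 8.32 and 81 reads in those standing alone.

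The runs of 5 were on supercont1.381 and supercont1.687. On supercont1.381 the reads at the summits were 82, 83, 62, 87 and 118 in order along the scaffold, with gaps of 27914 to 141888 bp between them, and the last was the farthest region of all. On supercont1.687 they were 80, 111, 59, 109 and 76, with gaps of 34343 to 62393 bp between them. Each run joined regions near the lowest pileup with regions above the upper quartile of 92 reads.

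The regions were spread over 574 of 2389 scaffolds, 306 of which held a single one and 41 at least 5. The scaffold with most of them was supercont1.189, which held 12 among 80 peaks over 2.15 Mbp. The reads at their summits were 74 to 165, and only 3 of the 12 exceeded 85 reads. Among the 708 scaffolds with at least 50 peaks, the 357 that held an isolated region had a median of 90.0 peaks per Mbp, against 117 in the 351 that held none. This follows in part from the rule, since sparse scaffolds offer more long gaps.

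None of the 16 AaegL3 intervals known to act as enhancers in insect reporter assays was an isolated region. All 16 overlapped a peak, but 1 of these was the single peak of its scaffold and could not have met the rule. For the other 15, with 3 counts as the limit, the count of 0 allows a share of up to 20%, while isolated regions were 0.996% of the peaks that could meet the rule. The median of the smaller gap of these 15 peaks was 4318 bp. The largest smaller gap was 15184 bp. Of the 15, 2 had 1 long gap, as had 11883 of the 116967 peaks that could meet the rule. The peak at supercont1.381:719825-720727, on the scaffold of the farthest isolated region, had 38524 bp without a peak to its right. The peak at supercont1.635:654739-655799 had 103402 bp to its left and a −log10 p of 26.2.

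The position of isolated regions relative to genes could be described only in AaegL5, the chromosome assembly, where the same reads had been aligned anew. The AaegL5 list used here contains no digit 3, and every 5 may stand for a 3 or a 5, so that the positions of peaks have several possible readings. A peak was called isolated when it met the rule in every reading that keeps peaks in order and of possible width. On chromosomes 1 to 3, 358 of 126980 peaks (0.282%) did so. They were 168 of 29656 peaks on chromosome 1 (0.566%), 95 of 52886 on chromosome 2 (0.180%) and 95 of 44438 on chromosome 3 (0.214%). Up to 1176 met it in some reading, 450 on chromosome 1, 376 on chromosome 2 and 350 on chromosome 3. How far the open digits set the difference between chromosomes was not tested. In all, 26438 peaks (20.8%) were put in no group, either because their group depended on the reading or because the rule does not allow their width or place. They were left out of the groups compared below at this gap, but were counted in the shares given for all peaks. In a trial with each 3 of the AaegL3 list written as 5, 698 of the 1165 isolated regions were found. The true reading was always among those kept, so all 698 were isolated by construction. AaegL3 scaffolds are shorter than chromosomes and no limit on position was set in the trial, so the share found in AaegL5 may differ.

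These 358 peaks had the traits of the AaegL3 regions. Their median pileup was 78 reads, against 88 to 89 reads in AaegL5 peaks that were not isolated, and 90.8 to 91.1% stood at the genome-wide background, against 28.5 to 28.7%. The median −log10 p was 8.18, against 7.36. The lists share their reads and the rule, so this is the same measurement and not a repeat.

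Isolated AaegL5 peaks were found at gene ends more often than other peaks. Windows of 500 bp outside either end of a RefSeq gene were overlapped by 62 of 353 isolated peaks with a settled answer, or 17.6% (13.7 to 21.9%), against 9.76% (9.58 to 9.95%) of peaks that were not isolated and 10.1% of all peaks on the chromosomes. The share was 12.6% (11.8 to 13.5%) with 1 long gap and 6.89% (5.53 to 8.45%) in closely set peaks. Without strand in the gene table, a start and an end of a gene could not be told apart.

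The difference had the same direction on each chromosome, with wide intervals. On chromosome 1 the share was 18.2% (12.6 to 24.9%), against 9.27% in peaks that were not isolated. On chromosome 2 it was 20.2% (12.6 to 29.8%), against 9.80%. On chromosome 3 it was 13.8% (7.57 to 22.5%), against 10.0%, which lies within the interval. Peaks with 1 long gap came closer, at 13.3%, 12.3% and 12.3% on chromosomes 1, 2 and 3, within the interval on chromosomes 1 and 3. With windows of 2500 bp on all chromosomes the share was 19.3% (15.3 to 23.8%) in isolated peaks. It was 13.5% in peaks that were not isolated and 16.3% with 1 long gap, the latter within the interval.

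The shares were also taken by strength, in a split chosen after the data were seen, and whether the difference itself varied with strength was not tested. Of peaks with a −log10 p under 10, 38 of 235 isolated ones (16.2%, 11.7 to 21.5%) lay at a gene end, against 6.63% of those not isolated and 8.39% with 1 long gap. Of peaks with at least 10, 24 of 118 isolated ones did (20.3%, 13.5 to 28.7%), against 17.5% of those not isolated and 20.9% with 1 long gap, both within the interval. By chromosome these shares rest on few peaks, and no difference between chromosomes was tested. On chromosome 1, 10 of 60 strong isolated peaks (at least 10) lay at a gene end (16.7%, 8.29 to 28.5%), against 16.2% of strong peaks not isolated. On chromosome 3, 7 of 41 did (17.1%, 7.15 to 32.1%), against 17.5%. For weak isolated peaks (under 10) the shares were 19.0% (12.0 to 27.9%) against 6.31% on chromosome 1 and 11.3% (4.27 to 23.0%) against 6.93% on chromosome 3. On chromosome 2, 7 of 17 strong isolated peaks lay at a gene end (41.2%, 18.4 to 67.1%), against 18.2% of strong peaks that were not isolated, and 12 of 77 weak ones did (15.6%, 8.32 to 25.6%), against 6.55%. With a gap of at least 50000 bp only 4 of 39 isolated peaks were at a gene end, or 10.3% (2.87 to 24.2%), against 9.74% of peaks that were not isolated and 13.4% with 1 such gap, so that at this distance no difference was detectable.

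Gene spans gave no such contrast. They were overlapped by 208 of 355 isolated peaks, or 58.6% (53.3 to 63.8%), against 62.7% of peaks that were not isolated and 62.8% of all, while gene spans made up 56.5% of the chromosomes. Spans of lncRNA genes were overlapped by 11 of 358 isolated peaks, or 3.07% (1.54 to 5.43%), against 1.64%, a value within the interval.

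**Figure D5:**
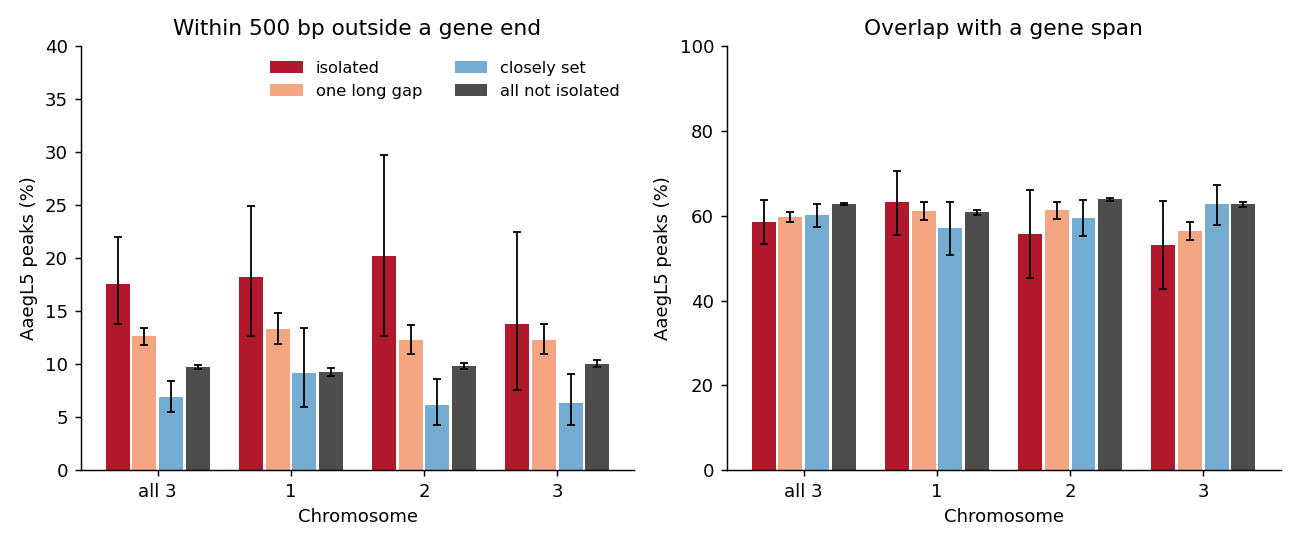
Share of AaegL5 peaks (percent, vertical axis, with exact 95% binomial intervals) that overlap a window of 500 bp outside a gene end (left) or a gene span (right), for all 3 chromosomes and each of them, in isolated peaks, peaks with 1 long gap, closely set peaks and all peaks that were not isolated. At gene ends the isolated peaks stand at 17.6% against 9.76% on all chromosomes, and for gene spans at 58.6% against 62.7%.

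The protein-coding genes that held isolated peaks were long. The 185 genes with an isolated peak had a median length of 161.2 kb (quartiles 33.5 and 418.3 kb), against 12.3 kb over all 13601 protein-coding genes of the chromosomes. A longer gene has more room for a peak of any kind, so this contrast is at least in part set by how the genes were picked. Each gene counted once. Genes with a closely set peak (612) or a peak with 1 long gap (2115) were long as well, with medians of 176.5 and 72.0 kb, so great length was not particular to genes with isolated peaks. The 185 genes held 198 isolated peaks, while the 2115 held 3866 peaks with 1 long gap, so these medians are not weighted alike. Distances were taken from the middle of a peak to the nearest end of any gene, for peaks whose position was open by at most 25 bp, which left 233 of the 358 isolated peaks. The 136 of these inside a gene lay a median of 13.2 kb from a gene end, against 21.9 kb for 44346 peaks that were not isolated. With 1 long gap this median was 23.2 kb, and in closely set peaks 24.8 kb. The 97 outside genes lay a median of 38.2 kb away, against 28.5 kb for 26458 peaks that were not isolated. It was 36.3 kb for 1834 peaks with 1 long gap and 35.6 kb for 383 closely set ones. A long distance outside genes was thus not particular to isolated peaks. No interval was computed for these medians.

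For 97 isolated AaegL5 peaks a single reading of the position was left, and 17 of these lay at a gene end. Genes are named here by their RefSeq symbols, as the gene table gives no products. The strongest was chr3:370293067-370294292, with 112 reads and a −log10 p of 22.4, across an end of the protein-coding gene LOC5568456 (370293547 to 370306209). The peak chr3:363099291-363100826, with 111 reads and 21.6, lay across an end of LOC5566873, a protein-coding gene of 326698 bp. The peak chr1:73023647-73025060, with 107 reads and 19.8, lay across an end of LOC5576373, of 255630 bp. All these peaks spanned the end itself, with sequence inside and outside the gene.

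Some lay at small genes within larger ones. The peak chr2:66247250-66248901, with 97 reads and a −log10 p of 15.6, covered an end of LOC23687462, a gene of 1812 bp inside LOC5567128 of 86668 bp. Likewise chr3:111948282-111948967, with 78 reads and 8.50, covered an end of LOC5576787, of 1733 bp, inside LOC5576785. The peak chr1:152396229-152397069, with 80 reads and 9.17, covered the whole of LOC110678368, an lncRNA gene of 627 bp, and had at least 101578 bp without a peak to its left and 50409 bp to its right. It lies in the stretch of chromosome 1 that the paper analyses as the predicted sex-determining M/m locus. Embryos of both sexes were mixed, and whether this bears on its reads or spacing was not tested. At other places an isolated peak covered facing ends of neighbouring genes. The peak chr1:55097097-55097804, with 79 reads and 8.84, overlapped both LOC5574020 and LOC5574011, and chr1:74148925-74149882, with 79 reads and 8.84, overlapped LOC5574256 and LOC5574257, whose spans overlap each other.

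The AaegL5 peaks farthest from any other, among those with a single reading, lay at various distances from genes. The farthest was chr1:248380012-248380971, with gaps of at least 108896 and 81378 bp, 78 reads and a −log10 p of 8.50, and it lay 2828 bp from LOC5578930. The peak chr2:257821020-257821877, with 80 reads, lay 12884 bp from LOC5566448. The peak chr1:65518915-65519480, with 80 reads, lay inside LOC5571233, 60.9 kb from the nearer end. The peak chr2:440906913-440907610, with 72 reads, was 235690 bp from the nearest gene, the lncRNA gene LOC110676066. Of these 10 peaks, those at LOC110679817 and LOC110678368 lay at a gene end.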

How the data were processed

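FAIRE-seq reads of the 3 pooled replicates were processed by the authors. According to the published methods and to notes of the submitters on processing, reads were cleaned with Trimmomatic, aligned with BWA backtrack, filtered by mapping quality with SAMtools, and peaks were called with MACS2 with an extension of 550 bp and no control, so that open chromatin was not separated from copy number or uneven mapping. The versions of these tools were not given in the sources used here. The deposited lists hold, for each peak, its position, summit offset, score, fold enrichment (a ratio over background) and −log10 p, and a −log10 q that was not used.

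Pileup n and background b were solved from the fold, (n + 1)/(b + 1), and the Poisson −log10 p, in scipy 1.17.1 with numpy 2.4.6, pandas 2.3.3 and matplotlib 3.10.9. Reads per summit limit precision. The scripts were tested on simulated data. AaegL5 readings were limited to widths of 550 to 7000 bp and to 1 Mb beyond the last gene, with genes from RefSeq AaegL5.0 (18034 on chromosomes 1 to 3). No TSS or gene product was given in that table, so planned groups of genes by product were not formed. An overlap of 1 bp counted.

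Members, lists and comparisons were chosen with earlier results of these data known. Regions named were the 10 strongest, the 10 with the largest smaller gap, the 5 on each side of each limit, the longest runs and those at tested enhancers. AaegL5 genes named were at the 15 strongest isolated peaks at gene ends or nearest to the 10 farthest, with a single reading; the weakest regions and the scaffold with most regions were added after their values were seen. Alternatives were other gaps, widths, strengths, windows and overlaps.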

Additional observations from a re-analysis of the deposited data

How the results depend on the processing

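The number of isolated AaegL3 regions, 1165, became 2050 with a minimum gap of 20000 bp, 144 with 50000 bp and 5669 once peaks under a −log10 p of 10 were dropped. The median −log10 p of isolated regions exceeded that of the other peaks by 1.04, by 1.42 within bins of width, by 1.68 with a minimum gap of 50000 bp and by 0.35 once peaks under 5 were dropped. With the genome-wide background for every peak, a choice made after the data were seen like those of pileup, neighbours and strength split, the difference was −3.08, and in pileup it was −9.0 reads. Both restate the same difference in reads. The share past a −log10 p of 5, 85.2%, became 34.2% past 10. The share of isolated regions next to another, 36.5%, was 16.7% with a minimum gap of 50000 bp and 40.9% without peaks under 5. The AaegL5 count of 358 became 1176 in the most favourable readings, 39 with a minimum gap of 50000 bp and 646 without peaks under 5. With that gap, the share at gene ends was 10.3% and in gene spans 46.2%, over 39 peaks. Other alternatives, 16 in all, stayed within the interval of the value or within 1.5 times the count. For shares this concerns the isolated peaks alone and not their contrast with other peaks. The share at gene ends for peaks of at least 10 is among the 16, at 20.3% against 17.5% in peaks that were not isolated. No paired analysis was possible because the replicates were pooled before peaks were called, and for the same reason no replicate could be left out. Planned groups of genes were not run, since the gene table names no products.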

Other observations

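The scaffold of the strongest isolated region, supercont1.836, stood apart from the rest of the list. Its 15 peaks had a median −log10 p of 53.6, against 7.39 over the list, and its strongest peak reached 372.3, the highest value off the mitochondrial scaffold. A second isolated region on the same scaffold was supercont1.836:373036-373804, with 68 reads and a −log10 p of 4.88, so the high values did not reach the whole scaffold.

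A further 30 peaks of at least 2500 bp had both gaps of at least 25000 bp. Their median width was 2951 bp, the widest was 4625 bp, and their median −log10 p was 16.5.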
